A study of Neurospora crassa with 6 samples.

Results

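Among 9872 entries of the table, 39 genes had higher transcript levels in the Δ*mak-1* mutant than in the wild type at both stages sampled. In the Δ*mak-2* mutant these genes stayed below 1.5-fold of the wild type, a limit that still allows a smaller increase. They were chosen by 3 conditions on RPKM values, that is reads relative to gene length (exon model) and to all mapped reads of a library. The ratio of Δ*mak-1* to the wild type had to be above 2 at both stages, the ratio of Δ*mak-2* to the wild type below 1.5 at both stages, and RPKM above 10 in both libraries of Δ*mak-1*. The ratios to the wild type therefore chose the genes, and they are given below as a description. Of 4841 genes above 10 RPKM in both Δ*mak-1* libraries, 127 (2.62%) were past 2-fold at both stages and the 39 genes make up 0.806%. Of the other genes past 2-fold, 34 reached 1.5-fold in Δ*mak-2* at the protoperithecial stage only, 21 in vegetative hyphae only and 33 at both stages.

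The cell wall integrity (CWI) pathway of fungi senses damage to the wall through membrane proteins such as HAM-7 and WSC-1, which act through protein kinase C. These feed a MAP kinase cascade, in which MIK-1 activates MEK-1 and MEK-1 activates MAK-1, the last kinase of the pathway in *Neurospora crassa*. MAK-2 is the last kinase of a different cascade, the pheromone response (PR) pathway, which also serves cell fusion, and both kinases are known to be needed for the formation of female structures.

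Strains of 3 genotypes were sequenced, those deleted for *mak-1* or *mak-2* and the wild type, at 2 stages each. Protoperithecial cultures, the beginning of female development, were kept for 3.5 days in the dark at 25°C on a sheet of cellophane over synthetic crossing medium (0.1% sucrose), whereas vegetative hyphae came from liquid Vogel's medium shaken at 28°C for 22 h. Medium, surface, temperature and growth time changed together with the stage and cannot be told apart from it, and the light condition of the vegetative cultures is not given in the sources used here. Each mutant was 1 deletion strain of mating type a from a stock centre. For sequencing, RNA from 3 repeats was mixed, so each of the 6 conditions has 1 library. No difference could be checked on replicates, and p-values are therefore absent. As the RNA came from whole cultures, fewer cells of a type and less RNA per cell cannot be told apart.

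Reads were recovered from the steps of the RPKM values for all 39 genes, and the libraries held 2602076 to 3668046 mapped reads. The range after each ratio is an exact (Clopper-Pearson) 95% interval from these reads, which covers counting error only. No read of *mak-2* was found in Δ*mak-2*. In Δ*mak-1* the entry of *mak-1*, which stands under an older locus number in the deposited table, was at 6.08 RPKM (52 reads) at the protoperithecial stage and 6.39 RPKM (50 reads) in vegetative hyphae, against 148 and 42.1 RPKM in the wild type. Where in the gene these reads lie, inside or outside the deleted part, was not tested, so they do not show a transcript left in the mutant. In vegetative hyphae the median gene was itself 1.33-fold higher in Δ*mak-1* than in the wild type (0.41 on the log2 scale), against 1.05-fold at the protoperithecial stage. Ratios of vegetative hyphae carry this shift.

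The conidial genes *eas*, *con-6*, *con-8* and *con-10*, which mark asexual spores, summed at the protoperithecial stage to 15786 RPKM in Δ*mak-1*, 17021 RPKM in Δ*mak-2* and 900 RPKM in the wild type. In vegetative hyphae the sum was 2616 RPKM in Δ*mak-1*, 48766 RPKM in Δ*mak-2* and 2305 RPKM in the wild type, but 1 gene carried much of it, *eas* with 2504 RPKM in Δ*mak-1*, 47036 RPKM in Δ*mak-2* and 703 RPKM in the wild type. The other conidial genes were below 0.5-fold of the wild type in vegetative hyphae of Δ*mak-1*, as were *con-6* and *con-10* in Δ*mak-2*. *con-10* was at 3.70 RPKM in Δ*mak-1* and 13.6 RPKM in Δ*mak-2*, against 106 RPKM in the wild type. The protoperithecial genes *app*, *poi-2*, *per-1*, *tnr-1* and *tnr-2* summed at that stage to 82.8 RPKM in Δ*mak-1*, 90.0 RPKM in Δ*mak-2* and 4254 RPKM in the wild type. In vegetative hyphae they summed to 4.75 RPKM in Δ*mak-1*, 10.1 RPKM in Δ*mak-2* and 52.2 RPKM in the wild type. *per-1* and *tnr-2* had no read in Δ*mak-1* there, and *tnr-2* had none in any vegetative library. The label of the stage thus names a culture condition, in which the protoperithecial genes were low in both mutants. The part of these cell types in the levels of the 39 genes was not tested.

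The CWI pathway genes *mek-1* and *pkc* were among the 39. *mek-1* (NCU06419) encodes the MAP kinase kinase directly above MAK-1. Its level was 440 RPKM at the protoperithecial stage and 238 RPKM in vegetative hyphae of Δ*mak-1*, 52.5 and 26.1 RPKM in Δ*mak-2*, and 55.6 and 41.9 RPKM in the wild type. Both Δ*mak-1* libraries lay above the other 4 libraries, which overlapped between Δ*mak-2* and the wild type. The ratio of Δ*mak-1* to the wild type was 7.92 (7.04 to 8.93) at the protoperithecial stage and 5.68 (4.87 to 6.66) in vegetative hyphae, from 2737 and 1357 reads in the mutant. In Δ*mak-2* the ratio was 0.944 (0.803 to 1.11) at the protoperithecial stage and 0.623 (0.493 to 0.785) in vegetative hyphae.

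*pkc* (NCU06544) encodes protein kinase C, which acts above the cascade. It was at 17.4 RPKM (protoperithecial stage) and 24.7 RPKM (vegetative hyphae) in Δ*mak-1*, 6.05 and 3.66 RPKM in Δ*mak-2*, and 8.48 and 4.93 RPKM in the wild type. Its increase was larger in vegetative hyphae, at 5.02-fold (3.64 to 7.06), than at the protoperithecial stage, at 2.05-fold (1.61 to 2.64), where the interval reached below the threshold of 2. *pkc* was higher at the protoperithecial stage than in vegetative hyphae in Δ*mak-2* (1.65-fold, 1.09 to 2.54) and in the wild type (1.72-fold, 1.19 to 2.52), whereas in Δ*mak-1* the ratio was 0.704 (0.587 to 0.842). The median ratio over all genes was 1.67 in Δ*mak-2*, 1.85 in the wild type and 1.41 in Δ*mak-1*. In Δ*mak-2* and the wild type *pkc* thus rose no more than the median gene.

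**Figure D1:**
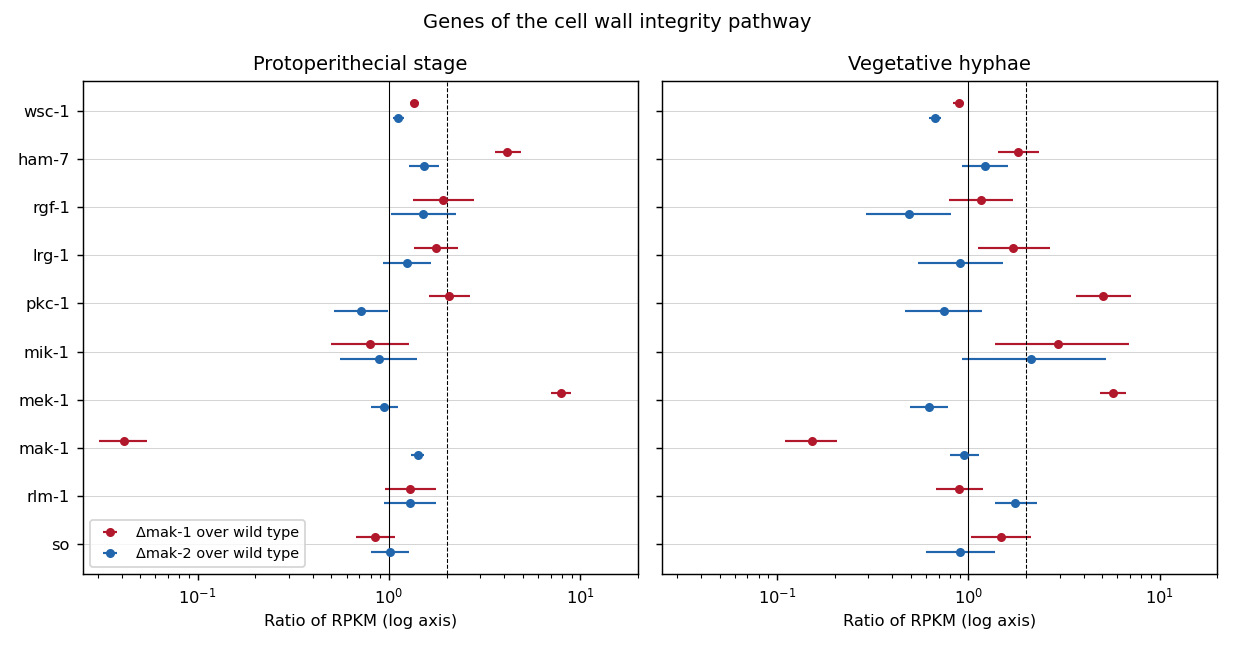
Ratio of each mutant to the wild type (log axis) at the protoperithecial stage (left) and in vegetative hyphae (right) for genes of the CWI pathway. Points are ratios of RPKM, bars are exact 95% counting intervals, and the dashed line is at 2. *mek-1* stands furthest to the right at both stages in Δ*mak-1*, at 7.92 and 5.68, and no point of Δ*mak-2* lies above 2 except *mik-1* in vegetative hyphae, which was below 10 RPKM in every library.

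Leaving out *mak-1* itself, 10 genes of the pathway were measured, of which 8 at the protoperithecial stage and 6 in vegetative hyphae passed 10 RPKM in Δ*mak-1* or the wild type. A ratio above 2 counted as raised and one below 0.5 as lowered, provided that RPKM passed 10 in a library of the pair, which held for 11% (raised) and 8.35% (lowered) of genes in Δ*mak-1* at the protoperithecial stage and for 18.5% and 6.77% in vegetative hyphae. At the protoperithecial stage 4 of the 10 were raised and none was lowered (median ratio 1.84, against 1.05 over all genes). Among these were *mek-1*, *pkc* and *ham-7* at 4.16-fold, and with scaling by the median of ratios 2 of the 10 were raised and *pkc* was not. In vegetative hyphae *mek-1* and *pkc* were raised and none was lowered (median 1.77, against 1.33 over all genes). In Δ*mak-2* none of 11 genes was raised or lowered at either stage, with medians of 1.12 and 0.908. Only 7 of the 11 at the protoperithecial stage and 6 in vegetative hyphae passed 10 RPKM in a library of the pair. Of all genes that did, 8.56% were raised and 10.7% lowered at the protoperithecial stage, and 7.26% and 6.41% in vegetative hyphae. The set thus holds 2 of these 10 genes. Others of the list below 2-fold in Δ*mak-1* at the protoperithecial stage were *rgf-1* (1.92), *lrg-1* (1.76), *wsc-1* (1.36), *rlm-1* (1.29), *so* (0.848) and *mik-1* (0.793), the last below 3 RPKM in every library.

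The kinase genes of the other cascades were not among the 39. Of 7 table entries of the PR pathway, none was past the limits for raised or lowered in Δ*mak-1* at the protoperithecial stage. Their median ratio was 0.782, against 1.05 over all genes. *mak-2* was at 0.517 (0.481 to 0.556), just above the limit of 0.5, and *nrc-1* at 0.631 (0.541 to 0.736). The other entries lay between 0.760 (*adv-1*) and 1.24 (*pp-1*). In vegetative hyphae the 2 entries of *ham-5*, the scaffold of that cascade, were raised at 2.60- and 3.15-fold. Of 5 genes of the osmoregulatory (OS) pathway, *os-4* (3.71-fold) and *os-5* (2.95-fold) were raised at the protoperithecial stage, and *os-5* (6.40-fold) and *os-1* (2.48-fold) in vegetative hyphae. *os-5*, which encodes the MAP kinase kinase of the OS cascade and so holds the place that *mek-1* holds in the CWI cascade, was raised at both stages and missed the set for its ratio of 1.72 in Δ*mak-2* in vegetative hyphae.

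Among genes of the cell wall, *ncw-2* (NCU01752), which encodes a non-anchored cell wall protein, belonged to the set. It was at 109 RPKM at the protoperithecial stage and 839 RPKM in vegetative hyphae of Δ*mak-1*, 41.6 and 60.0 RPKM in Δ*mak-2*, and 46.2 and 302 RPKM in the wild type. The ratio in Δ*mak-1* was 2.37 (2.06 to 2.72) at the protoperithecial stage and 2.78 (2.62 to 2.94) in vegetative hyphae, while in vegetative hyphae of Δ*mak-2* it was 0.199 (0.176 to 0.225). The mutants therefore lay on opposite sides of the wild type in vegetative hyphae. *ncw-2* was the only one of 17 genes for cell wall proteins in the set, although 12 of the 17 were raised and 2 lowered in Δ*mak-1* at the protoperithecial stage. In Δ*mak-2* 8 of the 17 were raised and 2 lowered at that stage, with a median ratio of 1.96, against 2.37 in Δ*mak-1*. Much of this increase was thus shared by the mutants. In vegetative hyphae 2 were raised and 3 lowered in Δ*mak-1*, and none was raised and 4 lowered in Δ*mak-2*. The 5 genes for cell wall synthesis, found by their symbols, were all chitin synthase genes (*chs*), so no glucan synthase gene was examined. No gene of these 5 or of the 34 for wall remodelling was in the set. Of the synthesis genes, none was raised at the protoperithecial stage and *chs-3* was raised in vegetative hyphae, and of the remodelling genes 3 were raised at each stage, with 1 and 2 lowered. Of the 34 remodelling genes, 18 and 17 passed 10 RPKM in a library of the pair at these stages.

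Of 62 genes for glycoside hydrolases and esterases other than those of wall remodelling, *gh61-3* and *gh13-6* belonged to the set. At the protoperithecial stage 6 of the 62 were raised and 13 lowered in Δ*mak-1* (median ratio 0.822, against 1.05 over all genes), and in vegetative hyphae 4 were raised and 3 lowered (median 1.06, against 1.33). Of the 62, 48 passed 10 RPKM in a library of the pair at the protoperithecial stage and 19 in vegetative hyphae, and only those could be counted. *gh61-3* (NCU02916), of a family now known as lytic polysaccharide monooxygenases, was at 1088 RPKM at the protoperithecial stage and 13.5 RPKM in vegetative hyphae of Δ*mak-1*, 348 and 2.58 RPKM in Δ*mak-2*, and 290 and 6.05 RPKM in the wild type. It had low counts in vegetative hyphae, 49 reads in Δ*mak-1* against 17 in the wild type, a ratio of 2.23 (1.26 to 4.14), and a ratio of 3.75 (3.51 to 4.02) at the protoperithecial stage. *gla-1* (NCU01517), the glucoamylase gene, which is outside that list, was at 265 RPKM at the protoperithecial stage and 76.1 RPKM in vegetative hyphae of Δ*mak-1*, 55.4 and 41.1 RPKM in Δ*mak-2*, and 97.3 and 37.7 RPKM in the wild type. *gh13-6* (NCU05873), of a family that acts on starch and related glucans, was the gene of the set with the lowest levels in Δ*mak-1*, 12.3 and 13.1 RPKM, against 4.54 and 4.21 RPKM in the wild type.

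Few of the other genes carried a description. NCU07987, annotated as cystathionine beta-lyase of methionine synthesis, was at 93.4 RPKM (protoperithecial stage) and 23.5 RPKM (vegetative hyphae) in Δ*mak-1*, against 15.8 and 8.67 RPKM in the wild type, ratios of 5.91 (4.62 to 7.65) and 2.71 (1.82 to 4.15). NCU00955, described as a protein with an FAD/NAD(P)-binding domain, was raised 2.40-fold (2.02 to 2.86) and 4.08-fold (3.21 to 5.25). NCU01315, assigned to O-glycan biosynthesis, was raised 2.07-fold (1.73 to 2.49) and 2.08-fold (1.62 to 2.70), and is the longest of the 39 with 4968 bases of exon model. Like *gla-1*, NCU02470 was annotated with the response to glucose starvation, and it was raised 2.77-fold (2.13 to 3.64) and 3.33-fold (2.03 to 5.72). *arp-4* (NCU02555) was raised 4.12-fold (3.79 to 4.47) at the protoperithecial stage and 2.88-fold (2.504 to 3.32) in vegetative hyphae, and *bek-2* (NCU07139) by 2.13-fold (1.87 to 2.44) and 2.17-fold (1.53 to 3.12).

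In all, 9 of the 39 genes have a symbol in the RefSeq annotation, 38 could be matched to it, and 10 carry a GO or KEGG term in the deposited table (25.6%, against 38.8% of the 4841 genes above 10 RPKM in both Δ*mak-1* libraries). For 33 of the 39 the best database match was a hypothetical protein (84.6%, against 80.9%). No GO or KEGG term was carried by more than 2 of the 39. The terms carried by 2 were sporocarp development and hyphal growth, both of *mek-1* and *bek-2*, and cellular response to glucose starvation. The exon models of the 39 genes had a median length of 1695 bases (264 to 4968), against 1350 bases over the 4841 genes.

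**Figure D2:**
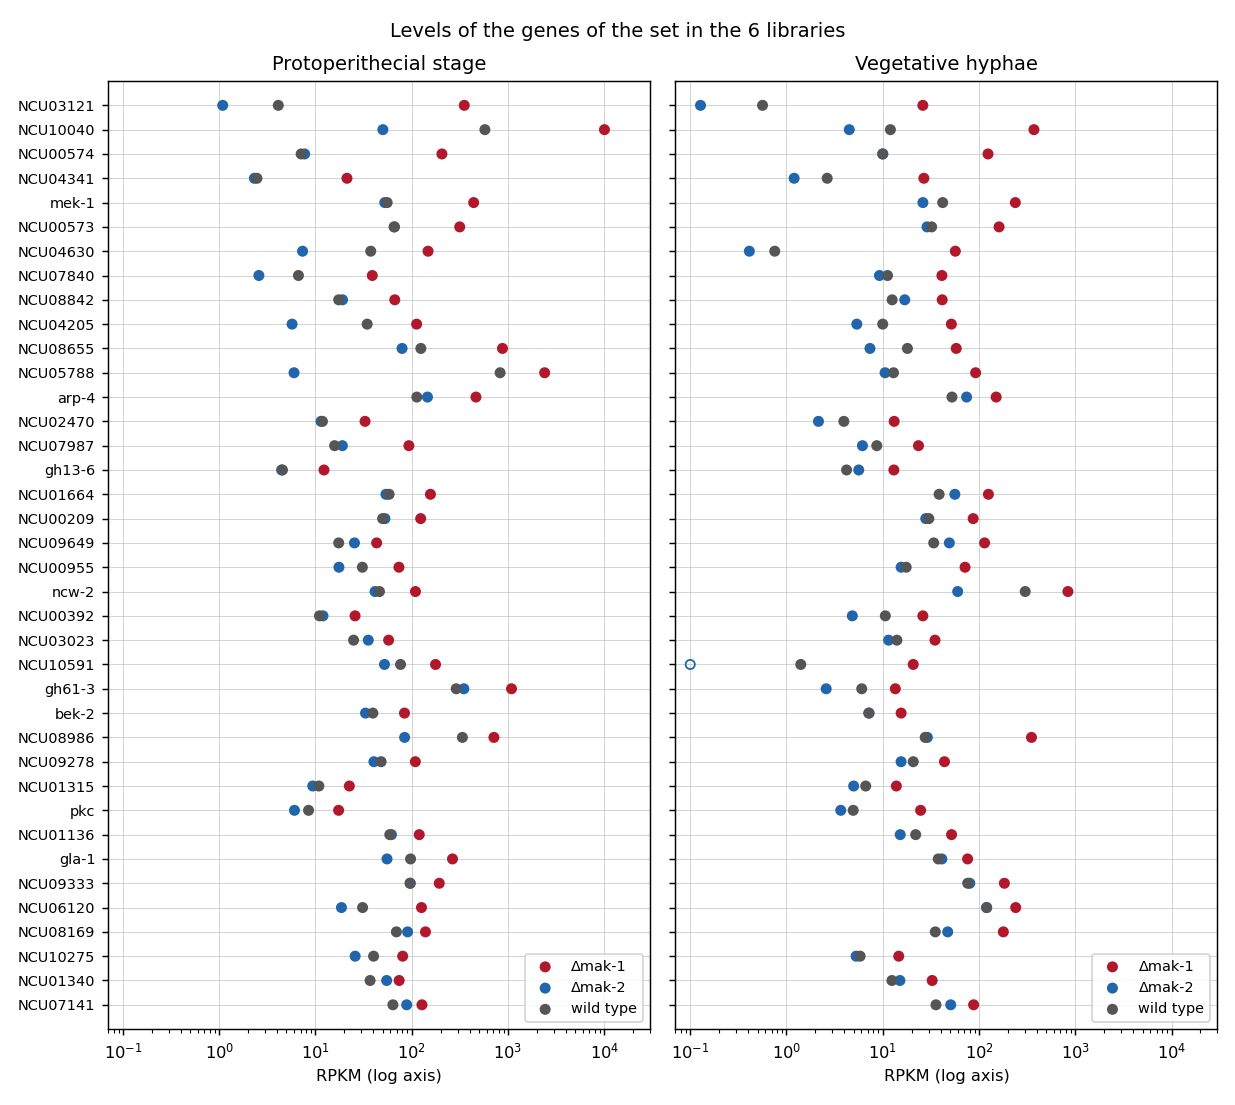
Level of the genes of the set in RPKM (log axis) at the protoperithecial stage (left) and in vegetative hyphae (right), ordered from the top by the smaller of the 2 ratios of Δ*mak-1* to the wild type. Each point is 1 library, and the open circle marks NCU10591, which had no read in Δ*mak-2* hyphae and is drawn at the left edge. The Δ*mak-1* point is the right-most for every gene, as the rule requires, and the Δ*mak-2* point lies far left of the wild type for several genes, such as NCU05788 with 5.99 against 828 RPKM at the protoperithecial stage.

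The 3 genes whose smaller ratio of the 2 stages was largest had a hypothetical protein as their best match. NCU03121 was at 352 RPKM at the protoperithecial stage and 26.1 RPKM in vegetative hyphae of Δ*mak-1*, 1.09 and 0.128 RPKM in Δ*mak-2*, and 4.11 and 0.564 RPKM in the wild type. Its ratios were 85.5 (61.9 to 122) and 46.3 (17.8 to 171), and the vegetative one rests on 4 reads in the wild type. NCU10040 was at 10051 RPKM at the protoperithecial stage and 372 RPKM in vegetative hyphae of Δ*mak-1*, 50.2 and 4.49 RPKM in Δ*mak-2*, and 576 and 12.01 RPKM in the wild type. It was raised 17.5-fold (16.4 to 18.6) and 31.0-fold (19.2 to 53.5), and its 20056 reads at the protoperithecial stage made up much of the 57687 reads of the whole set in that library. NCU00574 was at 206 and 124 RPKM in Δ*mak-1*, 7.72 and 9.99 RPKM in Δ*mak-2*, and 7.10 and 10.01 RPKM in the wild type, with ratios of 29.0 (15.1 to 64.1) and 12.4 (6.57 to 26.3). For NCU00574 Δ*mak-2* and the wild type lay close together at both stages, unlike NCU03121 and NCU10040.

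Direct neighbours made up 2 pairs of members in the order of genes of the RefSeq annotation. One is NCU00574 with NCU00573, which was at 315 RPKM at the protoperithecial stage and 162 RPKM in vegetative hyphae of Δ*mak-1*, 65.6 and 28.9 RPKM in Δ*mak-2*, and 66.2 and 32.2 RPKM in the wild type, an increase of 4.76-fold (4.36 to 5.203) and 5.02-fold (4.37 to 5.79). The gene next to NCU00573, NCU00572, had ratios of 1.34 and 2.23 and was no member. The other pair is NCU10591 with NCU04630. NCU04630 was at 148 and 56.8 RPKM in Δ*mak-1*, 7.34 and 0.411 RPKM in Δ*mak-2*, and 37.5 and 0.755 RPKM in the wild type, with ratios of 3.94 (3.48 to 4.47) at the protoperithecial stage and 75.2 (32.0 to 233) in vegetative hyphae, where the wild type had 5 reads. NCU10591 was raised 2.31-fold (1.74 to 3.09) at the protoperithecial stage and 14.7-fold (2.34 to 612) in vegetative hyphae, from 19 reads in Δ*mak-1* and 1 read in the wild type. It had no read in vegetative hyphae of Δ*mak-2*, where 3 reads would stand for 3.83 RPKM. Whether the authors' counting used the strand is not stated, so reads of overlapping neighbours could be shared. A further pair, NCU07141 and *bek-2*, has 1 gene between them, which had no read in any library. No member lay within 5 genes of *mak-1*.

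Of the remaining genes with a large increase at both stages, NCU04341 was raised 8.62-fold (5.74 to 13.5) and 10.1-fold (6.55 to 16.4), to 21.2 RPKM at the protoperithecial stage and 26.7 RPKM in vegetative hyphae. NCU07840 was raised 5.85-fold (4.43 to 7.85) and 3.67-fold (2.87 to 4.76), NCU08842 by 3.83-fold (3.01 to 4.92) and 3.31-fold (2.40 to 4.65), and NCU04205 by 3.26-fold (2.66 to 4.04) and 5.17-fold (3.43 to 8.05). NCU08655 was among the most abundant members, at 877 RPKM at the protoperithecial stage and 58.0 RPKM in vegetative hyphae of Δ*mak-1*, against 124 and 18.04 RPKM in the wild type. NCU01664, NCU00209, NCU00392, NCU03023, NCU09278, NCU01136, NCU09333 and NCU08169, all without a symbol, had ratios between 2.01 and 2.69 at the protoperithecial stage and between 2.11 and 5.09 in vegetative hyphae, where NCU08169 was the highest.

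Over the 39 genes the median ratio of Δ*mak-1* to the wild type was 2.69 at the protoperithecial stage (2.003 to 85.5) and 3.25 in vegetative hyphae (2.01 to 75.2). As deposited, the ratio was larger in vegetative hyphae for 27 of them and at the protoperithecial stage for 12. These values carry the shift of the median gene in vegetative hyphae. With each of the 3 scalings the median was no longer larger there. With the median of ratios it was 2.499 at the protoperithecial stage and 2.479 in vegetative hyphae. In the same order it was 2.63 and 2.47 with the upper quartile, and 2.798 and 2.187 with β-tubulin. The counts of 27 and 12 were not repeated with scaling. Most increases were moderate, since the smaller ratio was below 2.5 for 22 genes, while both ratios were above 3 for 11 genes and above 4 for 6. The whole counting interval lay above 2 at both stages for 17 genes, among them *mek-1*, *arp-4* and *ncw-2* but not *pkc*. In Δ*mak-1* 11 of the genes were above 100 RPKM at both stages, and in the wild type 24 were above 10 RPKM at both stages. A wild-type library held 10 or fewer reads for 6 genes, whose ratios are the least certain. For NCU10275, with 13 reads in Δ*mak-1* and 4 in the wild type in vegetative hyphae, the interval of 0.778 to 10.6 included 1.

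**Figure D3:**
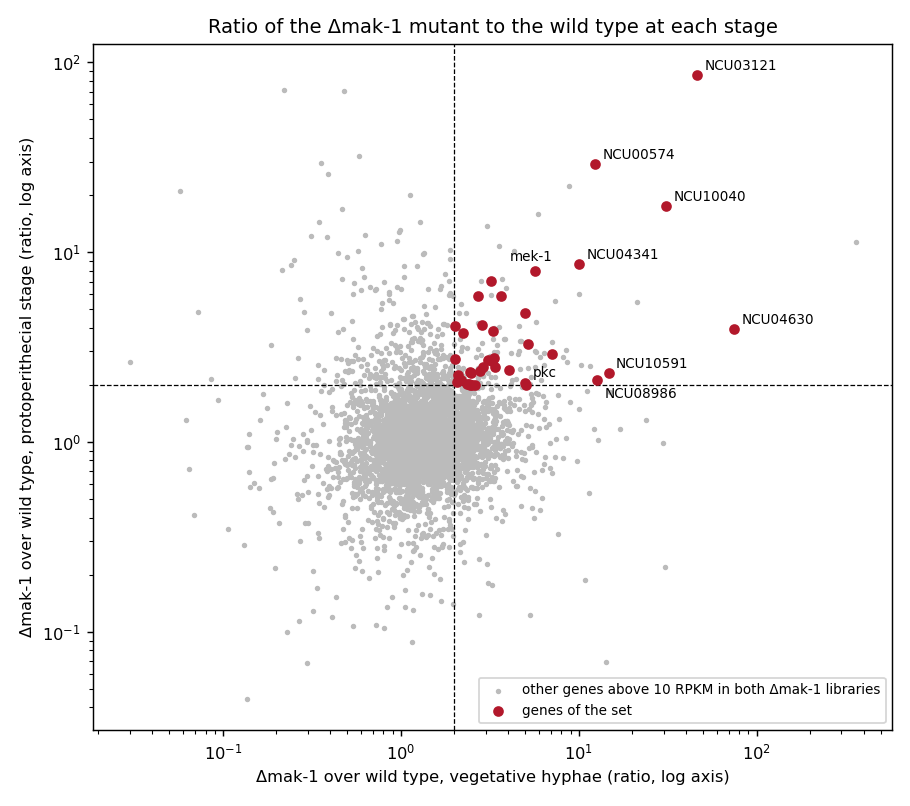
Ratio of Δ*mak-1* to the wild type at the protoperithecial stage (vertical, log axis) against that in vegetative hyphae (horizontal, log axis). Red points are genes of the set and grey points other genes above 10 RPKM in both Δ*mak-1* libraries, 1 gene with a wild-type value of 0 being left out. Most red points lie close to the dashed lines at 2, and NCU03121, NCU10040 and NCU00574 lie furthest from both. Grey points right of and above both lines are genes whose ratio in Δ*mak-2* reached 1.5 at a stage.

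Just inside a threshold were NCU07141, NCU01340 and NCU10275, with ratios of 2.003, 2.005 and 2.006 in Δ*mak-1* at the protoperithecial stage. Just outside were *col-26*, with a ratio of 1.97 at the protoperithecial stage, and NCU07037, with a ratio of 1.51 in Δ*mak-2* in vegetative hyphae. NCU06964 met the conditions on its levels, with 15.6 RPKM at the protoperithecial stage and 280 RPKM (1215 reads) in vegetative hyphae of Δ*mak-1*, but had no read in vegetative hyphae of the wild type, so that its ratio is not defined. It enters the set when a value of 0 is replaced by a floor of 3 reads.

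In Δ*mak-2* the rule set only an upper limit, and the levels there ranged widely. Relative to the wild type, the 39 genes had a median of 0.927 at the protoperithecial stage (0.00723 to 1.49) and 0.825 in vegetative hyphae (0 to 1.46). The whole counting interval lay above 1 for 7 genes at the protoperithecial stage and 4 in vegetative hyphae, and below 1 for 14 and 6. Smaller increases at both stages were those of *arp-4* (1.29, 1.17 to 1.43, and 1.42, 1.21 to 1.67), NCU09649 (1.46 and 1.45) and NCU07141 (1.39 and 1.42). For 20 genes, *mek-1* not among them, the ratio lay between 0.67 and 1.5 at both stages. It was below 1 at both stages for 18 of the 39, against 23.1% of the 4841 genes above 10 RPKM in both Δ*mak-1* libraries, to which the ceiling of 1.5 does not apply. At the protoperithecial stage 5 genes were lowered in Δ*mak-2*, where 10.7% of all genes were lowered, and in vegetative hyphae 4, where 6.41% were. Those of vegetative hyphae were *ncw-2*, NCU10040, NCU08655 (0.409, 0.164 to 0.939) and NCU00392 (0.454, 0.266 to 0.756). These shares cover genes above 10 RPKM in a library of the pair, and members below that in both libraries could not be counted. Such members below 0.5-fold included NCU03121 at the protoperithecial stage (0.265, 0.117 to 0.543) and in vegetative hyphae (0.227, 0.00461 to 2.29). NCU07840 was another, at the protoperithecial stage (0.388, 0.229 to 0.639).

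Lowered at the protoperithecial stage were NCU05788, NCU10040, NCU04205, NCU04630 and NCU08986. NCU05788 was at 2405 RPKM in protoperithecial cultures of Δ*mak-1*, 5.99 RPKM in those of Δ*mak-2* and 828 RPKM in those of the wild type, with 6 reads in the Δ*mak-2* library and 812 in the wild-type library. The ratio of Δ*mak-2* to the wild type was 0.00723 (0.00265 to 0.0158), and that of Δ*mak-1* 2.90 (2.68 to 3.15). In vegetative hyphae the same gene was at 92.2 RPKM in Δ*mak-1*, 10.6 RPKM in Δ*mak-2* and 12.9 RPKM in the wild type, so that Δ*mak-2* and the wild type were close there (ratio 0.817, 0.294 to 2.24). NCU10040 had a ratio of 0.0871 (0.0696 to 0.108) in Δ*mak-2* at the protoperithecial stage and 0.374 (0.131 to 0.948) in vegetative hyphae. It was the 1 gene counted as lowered at both, NCU03121 being below 10 RPKM in Δ*mak-2* and the wild type. NCU04205 was at 0.166 (0.0978 to 0.268), NCU04630 at 0.196 (0.147 to 0.257) and NCU08986 at 0.251 (0.199 to 0.314) of the wild type at the protoperithecial stage. Their levels in Δ*mak-1* and in Δ*mak-2* thus lay on either side of the wild type.

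Set directly against each other, Δ*mak-1* was above Δ*mak-2* for all 39 genes at both stages, which the rule fixes since it separates the ratios. The median was 3.19 (1.35 to 401) at the protoperithecial stage and 3.82 (1.73 to 204) in vegetative hyphae. The comparisons of both mutants share the wild-type libraries.

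Between stages, the shares of all genes cover genes above 10 RPKM in a library of the pair. Members below 10 RPKM in both libraries of a strain, such as NCU03121 and *pkc* in Δ*mak-2* and the wild type, could not be counted as past 2-fold. Counts out of the 39 and these shares are therefore not on the same footing. In Δ*mak-1* 18 of the 39 were above 2-fold and 2 below 0.5-fold at the protoperithecial stage relative to vegetative hyphae, where 32.6% of all genes were above and 9.48% below. In Δ*mak-2* the counts were 16 and 2, with 41.4% and 9.41% of all genes, and in the wild type 17 and 2, with 46.5% and 10.3% of all genes. The median stage ratio of the 39 genes was 1.85 in Δ*mak-1*, 1.93 in Δ*mak-2* and 1.82 in the wild type, against 1.41, 1.67 and 1.85 over all genes. With scaling by the median of ratios these medians of the set became 1.29, 1.15 and 1.04, and the members past 2-fold 11, 8 and 9. These libraries are the ones the rule used, so the counts describe the set. In all 3 strains 26 of the 39 were higher at the protoperithecial stage, where 54.8% of the 4841 genes above 10 RPKM in both Δ*mak-1* libraries were, and 5 were higher in vegetative hyphae, where 15% were. Above 2-fold in all 3 strains were 11 of the 39, against 13% of these genes. The medians over all genes were themselves above 1, so these counts carry that shift between stages. For 28 genes the level in vegetative hyphae of Δ*mak-1* was above that of the wild type at the protoperithecial stage. The rule favours this outcome, since it asks for a high vegetative level in Δ*mak-1*. The share over all genes was not counted, so the 28 only describe the set.

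**Figure D4:**
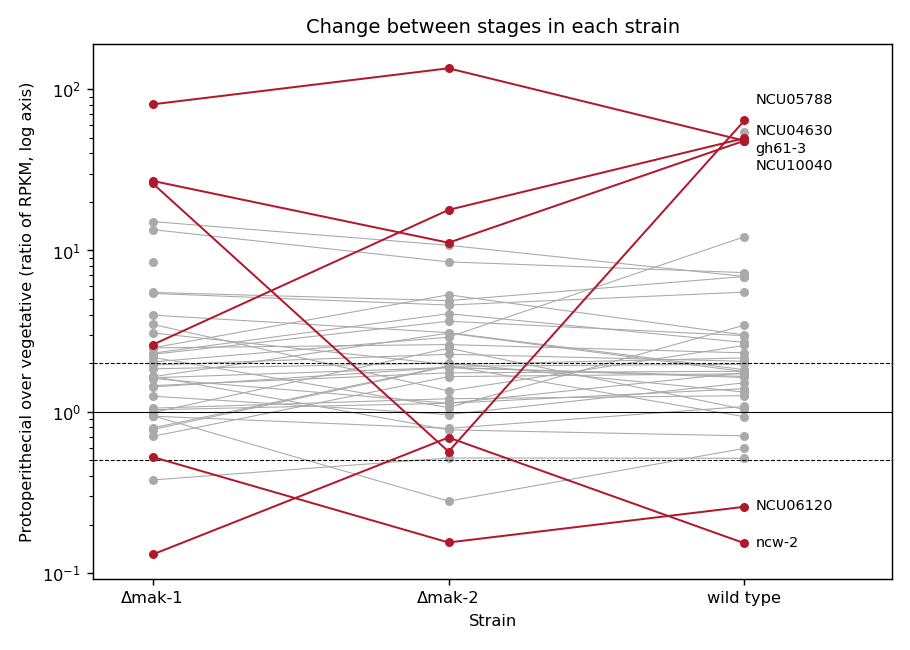
Ratio of the protoperithecial stage to vegetative hyphae (log axis) in Δ*mak-1*, Δ*mak-2* and the wild type. Each line is 1 gene of the set, and 6 are in red with their names at the right. NCU10591 had no read in vegetative hyphae of Δ*mak-2* and has no point there. NCU05788 falls below 1 in Δ*mak-2* only, at 0.567, and *ncw-2* is at 0.130 and 0.153 in Δ*mak-1* and the wild type, against 0.693 in Δ*mak-2*.

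The largest stage ratios in Δ*mak-1* were those of *gh61-3* (80.5, 60.8 to 109), NCU10040 (27.0, 25.0 to 29.2), NCU05788 (26.1, 21.2 to 32.5), NCU08655 (15.1, 12.1 to 19.1) and NCU03121 (13.5, 11.8 to 15.4). *gh61-3* kept this increase in Δ*mak-2* (135, 68.2 to 313) and in the wild type (47.9, 29.8 to 82.5). For NCU05788 the ratio was 0.567 (0.166 to 1.78) in Δ*mak-2*, against 64.0 (34.6 to 134) in the wild type. Among the smallest stage ratios in Δ*mak-1* were those of *ncw-2* (0.130, 0.121 to 0.141), NCU09649 (0.378, 0.327 to 0.436), NCU06120 (0.525, 0.462 to 0.595) and *pkc*. NCU04630 had a stage ratio of 2.60 (2.35 to 2.89) in Δ*mak-1*, against 49.7 (21.1 to 154) in the wild type, and NCU08986 one of 2.04 (1.81 to 2.29) in Δ*mak-1*, against 12.2 (8.12 to 19.0) in the wild type. Both were well above the wild type in vegetative hyphae of Δ*mak-1*, with 56.8 against 0.755 RPKM for NCU04630 and 351 against 27.6 RPKM for NCU08986.

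The set depends on how libraries are scaled to each other. With scaling by the median of ratios 26 genes met the rule (22 of the 39), with the upper quartile 31 (24 of the 39), and with β-tubulin 18 (17 of the 39). Under all 3 scalings 15 of the 39 were kept, among them *mek-1*, NCU03121, NCU10040, NCU00574, NCU00573 and NCU05788. *pkc* was kept with the upper quartile and β-tubulin and lost with the median of ratios, and *ncw-2* and *arp-4* were kept with the median of ratios and the upper quartile and lost with β-tubulin. *gh61-3*, *gla-1*, *gh13-6* and *bek-2* were kept under none. For *gh13-6* the ratios of Δ*mak-1* to the wild type stayed above 2 under all 3 scalings (2.08 to 2.81), so it failed other conditions of the rule. Of the 15 genes, 12 also had both counting intervals above 2.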

How the data were processed

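Single-end reads were made, for which CASAVA 1.8 is named in the processing notes of the submitters. For the aligner, the counter, the strand setting and the genome build nothing is given in the sources used here. RPKM values of 9872 entries were deposited by the authors, and 3 deposited columns of the authors' own ratios were not used. Whole reads were recovered from the common step of each gene's RPKM values for 8909 of 8913 entries above 0 in at least 2 libraries (relative tolerance 5e-09 or absolute tolerance 1e-06). Of the recovered lengths, 85.3% were multiples of 3, so most exon models are read as coding lengths. The other lengths, such as those of NCU10040 (544 bases) and *mak-1* (2330 bases), are not read this way. At the median length of 1365 bases, 10 RPKM stands for 35.5 to 50.1 reads. Names and neighbours came from RefSeq (assembly NC12, 9161 entries matched), whose coordinates were not used. Functional classes were taken from symbols and from the deposited best-match descriptions, since the table of names holds no products.

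The members and lists were chosen with earlier results of these data known. Genes named are the members of the lists, those with a symbol or description, the 10 with the largest smaller ratio, the 10 with the highest level, the 3 on each side of a threshold, and the 5 with the largest and smallest stage ratio in Δ*mak-1*, except some genes of these groups that count in the totals but are not reported here by name or value. Genes below 0.5-fold in Δ*mak-2*, *os-5*, NCU06964 and the neighbours of members were chosen after their values were seen. Alternatives were scaling, fold thresholds, the Δ*mak-2* ceiling, RPKM minimum, 1 RPKM added, a floor of 3 reads and counting intervals. Interval and recovery code was tested on simulated data. The software was scipy 1.17.1, pandas 2.3.3 and numpy 2.4.6 under Python 3.11.15, with matplotlib 3.10.9 for plots.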

Additional observations from a re-analysis of the deposited data

How the results depend on the processing

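The 39 genes became 18 with β-tubulin scaling, 154 with a fold threshold of 1.5, 11 with 3, 74 with a Δ*mak-2* ceiling of 2, and 17 with both counting intervals entirely above 2. The genes of the CWI pathway raised in Δ*mak-1* at the protoperithecial stage became 2 with the median of ratios.

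Among the lists of cell wall genes, whose scaling alternatives were added after seeing the data, the counts in vegetative hyphae of Δ*mak-1* moved most. Synthesis genes raised became 0 with β-tubulin and those lowered 1 with the median of ratios and the upper quartile. Cell wall protein genes raised became 1 with β-tubulin and those lowered 5 under all 3 scalings, and remodelling genes raised became 1 under all 3. At the protoperithecial stage the remodelling genes lowered became 0 with β-tubulin.

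Between stages (also added after seeing the data), members above 2-fold became 11 in Δ*mak-1* and 9 in the wild type with the median of ratios and the upper quartile, and 8 in Δ*mak-2* under all 3 scalings. Members below 0.5-fold became 5 (median of ratios) and 4 (upper quartile) in Δ*mak-1*, and 7 in Δ*mak-2* and 6 in the wild type under all 3. The median stage ratio of the members became 1.15 (median of ratios), 1.22 (upper quartile) and 1.11 (β-tubulin) in Δ*mak-2*, and 1.04, 1.04 and 1.24 in the wild type. The cause of these changes was not tested beyond the scaling itself.

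Of the 234 single-gene ratios over the 3 scalings, 59 were no longer past the threshold and none changed direction. Leaving out a replicate was not possible with 1 library per condition. No paired analysis was possible because each condition has 1 library and the labels carry no replicate numbers. The search of promoters for motifs was not run.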
